A study of Mus musculus with 14 samples.

Results

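Aged and young untreated long-term haematopoietic stem cells (LT-HSCs) of the mouse were compared by bulk ATAC-seq, in 9 of the 14 libraries of the series. The labels gave the members: 5 aged libraries (mice of over 80 weeks) and 4 young libraries (10 to 16 weeks). Both groups were C57BL/6 bone marrow cells sorted as Lin- Sca1+ cKit+ CD34- Flt3-, and both carried the treatment label control. Before the assay, cells of both groups were incubated for 16 h at 37 °C in 3% oxygen and 5% carbon dioxide, in HBSS with serum (10% FBS), so the data describe cells after this incubation and not freshly sorted ones. The other 5 libraries came from aged cells given Rhosin and entered the fits (the low-count filter, the scaling, the batch terms and the shared estimate of spread) but neither group. The design text speaks of biological replicates and does not state how many animals stand behind a library, so the p-values measure the spread between these libraries, which may be partly technical. Sequencing batch 1 held young 1, aged 1 and aged 2, batch 2 held young 2, young 3, aged 3 and aged 4, and batch 3 held young 4 and aged 5.

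LT-HSCs sit at the top of the blood hierarchy and divide rarely. With age their number in the mouse rises, while their output shifts from lymphocytes toward myeloid cells and platelets. ATAC-seq inserts adapters with the Tn5 transposase into accessible DNA. Open promoters lie at gene starts and are often shared by many cell types, whereas open elements away from genes, among them enhancers, differ more between cell types. Counts were tested here in 3 ways, each with edgeR's quasi-likelihood test and sequencing batch as a term: per peak of 700 bp, per gene end (peaks within 1 kb of a gene's start, or of either end where no start was given), and per distal sum (the other peaks within a gene's span or, between genes, nearest to it within 50 kb). Values per library are CPM (TMM-scaled counts at a common library size), and differences are log2 fold changes of aged over young ± the standard error (SE). Called means an adjusted p under 0.05, and "rose" and "fell" are used only of called features. Bulk counts cannot tell fewer open cells from less opening per cell.

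The stem cell lists were open at most of their gene ends. Of 25 transcription factors of haematopoietic stem cells 24 had a tested gene end, at a median percentile of 58.1 of all gene ends. Percentiles rank the mean CPM over the 9 aged and young libraries. Of 22 surface and niche receptors 19 had a tested gene end, at 31.2. Slamf1, Cd27, Cd48 and Fli1 had none. Platelet and megakaryocyte markers, with 19 of 23 gene ends tested at a median percentile of 44.2, stood between these lists. Of 21 B and common lymphoid markers 11 had a tested gene end, at a median percentile of 26.2, of 21 myeloid markers 11, at 18.2, of 17 erythroid markers 9, at 17.6, of 19 endothelial and stromal markers 11, at 14.5, and of 19 T and NK cell markers 9, at 6.62. Of 12 mast cell and basophil markers 4 had one, at 36.4, and of 20 neuronal and epithelial controls 7, at 13.2. Among the genes without one were Pax5, Rag2, Il7r, Cd3d, Cd3e, Cd3g, Cd8a, Elane, Prtn3, Ctsg, S100a8, S100a9, Gata1, Epor, Alas2, Pdgfra and Lepr, which mark lymphoid, myeloid, erythroid or stromal cells. Other members of these lists stood high, among them Tcf3 (percentile 97.3), Gata3 (74.1), Spi1 (70.1) and Tfrc (69.4). Flt3, whose protein the sort excluded, has peaks in these libraries and is described with the surface receptors.

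Library totals ran from 765533 counts (young 3) to 2705576 (aged 3), or a median of 7 to 25 counts per peak, and did not differ detectably between the groups (2-sided exact permutation test, p = 0.698). The number of calls depended on which libraries were in the fit. Out of 3214 called peaks, the same fit gave 776 without young 1, 1095 without aged 3, 257 without batch 1, 537 without batch 2 and 6155 without batch 3. Fitted on the 9 aged and young libraries alone, 2500 of the 3214 were still called. Aged 5 was the lowest aged library at 1549 of the 2504 peaks that rose (61.9%), and aged 3 the highest at 1659 (66.3%). Young 1 was the highest young library at 398 of the 710 peaks that fell (56.1%). The share of counts at gene ends moved with age too: it was 51.5 to 55.7% in young and 42.8 to 54.5% in aged libraries (2-sided exact permutation test, p = 0.0476, and 0.0635 adjusted over 4 measures). Within batches that difference was -8.34, -6.49 and -1.22 percentage points, and the exact permutation test within batches gave p = 0.0278, the smallest it can give, and 0.037 adjusted over the 4 measures. With the share as a covariate 133 of the 3214 called peaks were still called, and its part in the results was not tested.

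Opening outnumbered closing. Of 56235 tested peaks 2504 rose (4.45%) and 710 fell (1.26%), with median folds of 2.46 and 2.25. Without young 1, 698 of the gains and 34 of the losses were still called. In all, edgeR called 715 gains and 61 losses without young 1, 1000 and 95 without aged 3, 1586 and 206 without aged 1, and 1792 and 210 without aged 2. The 2 directions were closer to even in 2 other fits. Without batch 2 gains and losses numbered 296 and 241, and with the replicate number as a further term 5472 and 5315. In batch 1, 2 and 3 the median log2 difference of the gains was 1.46, 1.37 and 0.62, and that of the losses -1.44, -1.05 and -0.44. Groups did not overlap at 1443 gains and 202 losses, beside 6.07% of all tested peaks. Among 13403 gene ends 249 rose (1.86%) and 33 fell (0.246%). Scaled over all peaks instead, 76 gene ends rose and 109 fell, since that scaling moves the median of all gene ends to -0.25 on the log2 scale. Among 10922 distal sums 520 rose (4.76%) and 390 fell (3.57%), and 923 and 193 with the all-peak scaling, which moves their median to 0.10. The 3 levels share counts and are no independent support for each other.

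Gains lay away from gene ends. Peaks more than 50 kb from any protein-coding gene rose in 8.82% of cases (566 of 6418) and peaks within gene spans in 5.51% (1152 of 20923), against 1.12% of peaks at gene ends (173 of 15417). At gene ends losses were the more frequent call, with 1.65% lower, and the median log2 fold change there was -0.22 against 0.12 in gene spans. In 10 groups of peaks of equal size by mean accessibility, the share that rose climbed from 1.26% in group 1, the lowest, to 9.28% in group 8 and was 2.31% in group 10. Changes are harder to detect at low counts. Most gains stood alone: 2006 had no called gain as the next tested peak, while 195 runs held 2 neighbouring gains, 27 held 3, 4 held 4, and 1 each held 5 and 6. Losses formed 17 runs of 2 and 1 run of 3. The run of 5 gains, chosen after its values were seen like the other runs, covered chr11:30999770-31225948 at Asb3, a gene of an ankyrin repeat protein with a SOCS box.

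Several loci gained accessibility at many of their peaks. Protein-coding genes with peaks numbered 15977, and 2072 of them had a called peak: 1478 gains only, 506 losses only and 88 both. At 16 genes 4 or more peaks rose and none fell. Wwtr1, which encodes the YAP-related transcriptional coactivator TAZ, led them with 6 of 12 peaks, spread from 0.07 kb upstream of its start to 88.4 kb downstream, at log2 fold changes of 1.24 to 1.83. All 12 Wwtr1 peaks had a positive log2 fold change. Its gene end was at 18.1, 21.7, 15.8 and 39.7 CPM in young 1 to 4 and at 103, 69.2, 96.3, 71.2 and 70.3 CPM in aged 1 to 5, without overlap (log2 1.70 ± 0.22, edgeR adjusted p = 8.67e-06). Its distal sum rose as well, from 138 ± 19.8 (SD, n = 4) to 253 ± 60.4 CPM (SD, n = 5), by 0.89 ± 0.18.

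Mecom, a transcription factor gene (also known as Evi1) needed for stem cell maintenance, had 5 called gains among 24 peaks, from 5.05 kb upstream to 270 kb into the gene. Of its 24 peaks 21 had a positive log2 fold change. The gain with the smallest p (chr3:30455815-30456514) was at 7.55, 14.4, 11.4 and 9.19 CPM in young and 27.3, 19.3, 38.3, 34.2 and 14.7 CPM in aged libraries (log2 1.32 ± 0.26, edgeR adjusted p = 0.00173), so the lowest aged library stood just above the highest young one. The Mecom distal sum, which pools 22 peaks, rose by only 0.53 ± 0.14 (edgeR adjusted p = 0.0236), and was not called without young 1, young 2, aged 1 or aged 3 (adjusted p = 0.0574 to 0.177). Its gene end changed by 0.14 ± 0.16 and was not called.

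Pam, the enzyme that amidates peptide hormones, rose at 5 of 10 peaks, from 34.5 kb upstream to 185 kb downstream of its start. The Pam distal sum was at 88.6, 111, 89.1 and 125 CPM in young and 245, 190, 270, 201 and 161 CPM in aged libraries (log2 1.02 ± 0.17, edgeR adjusted p = 0.00114), without overlap. Aged 5 was the lowest of the aged libraries, as at many gains. Cog6, a subunit of a Golgi tethering complex, rose at 4 of 9 peaks, and its distal sum was at 204, 212, 167 and 181 CPM in young against 375, 373, 373, 338 and 242 CPM in aged libraries (log2 0.76 ± 0.15, edgeR adjusted p = 0.00419). Tent5c, a poly(A) polymerase known from B cells, rose at 4 of 9 peaks with a distal sum of 215 ± 12.8 CPM in young and 329 ± 43.9 CPM in aged (log2 0.61 ± 0.14), called in each leave-out except that without aged 3 (edgeR adjusted p = 0.0542).

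Rftn1, which encodes the lipid raft protein raftlin, held the largest fold of the peaks described here. At chr17:50161216-50161915, inside its span, young libraries stood at 2.66, 0.687, 1.42 and 3.39 CPM and aged libraries at 23.3, 21.1, 28.9, 17.8 and 21.4 CPM, a 9.5-fold difference (log2 3.25 ± 0.37, edgeR adjusted p = 2.36e-06). Here aged 5 was as high as the others, and the call also held when the gene-end share was a covariate. Only 4 of the 19 Rftn1 peaks rose, and 12 had a positive log2 fold change. Its gene end was not called (log2 0.24 ± 0.20). Nav3, a microtubule-binding protein, and Exoc6b, a subunit of the exocyst that docks vesicles, each had 4 gains among 12 and 14 peaks. Their distal sums rose by 0.91 ± 0.19 and 0.75 ± 0.16, and both calls were lost without young 1 (edgeR adjusted p = 0.0549 and 0.0594).

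**Figure D1:**
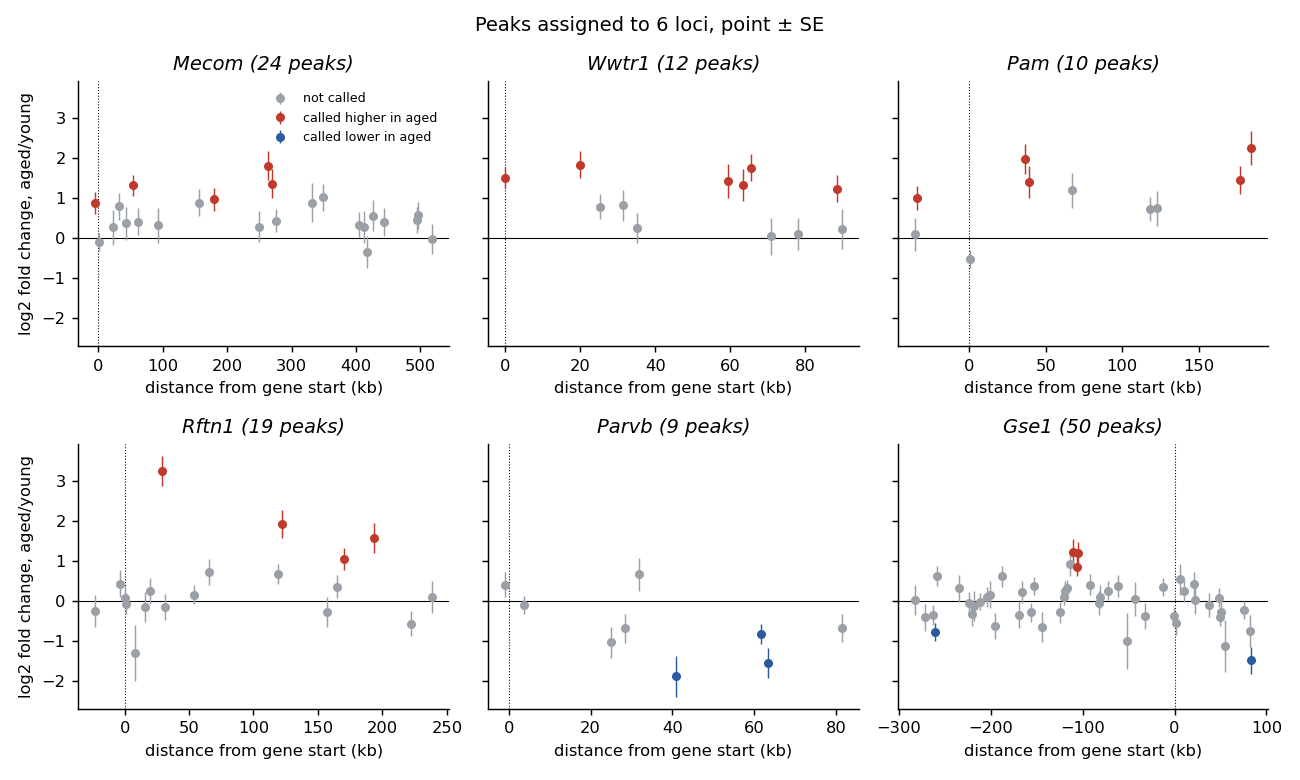
Log2 fold change of aged over young (y axis, points with SE bars) for each tested peak of 6 genes against its distance in kb from the gene start (x axis); filled colours mark called gains and losses. Gains spread along Wwtr1 and Pam, those of Mecom end at 270 kb although tested peaks go on beyond, Rftn1 holds 1 peak far above the rest, Parvb loses 3 neighbouring peaks, and Gse1 holds 3 neighbouring gains and 2 losses apart from them.

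Losses also gathered at some loci, in 27 genes with 2 or more losses and no gain. N4bp2l2, a gene with a role in granulocyte production, fell at 2 of 4 peaks, 43.6 and 53.7 kb from its start. Its distal sum was at 105, 81.5, 89.1 and 55.8 CPM in young and 40.5, 34.1, 28.2, 24.2 and 28.6 CPM in aged libraries (log2 -1.44 ± 0.21, edgeR adjusted p = 0.000232). The groups did not overlap, and the call held in all 9 fits that left out a library. Parvb, a link between integrins and actin, fell at 3 adjacent peaks 40.9 to 63.4 kb from its start, by 0.82 to 1.88 on the log2 scale. Its distal sum was at 456, 310, 371 and 313 CPM in young and 173, 192, 157, 254 and 284 CPM in aged libraries (log2 -0.78 ± 0.17, edgeR adjusted p = 0.00742). Without young 1, the highest library, the adjusted p was 0.126.

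Akap11, an anchor for protein kinase A, hardly varied among aged libraries, at 42.3, 41.7, 37.9, 39.3 and 37.4 CPM in its distal sum, against 94, 66.8, 85.5 and 54.6 CPM in young ones (log2 -0.93 ± 0.20, edgeR adjusted p = 0.00649, and 0.0706 without young 1). Dusp22, a phosphatase of the JNK pathway, was even among young libraries instead, at 231, 240, 228 and 227 CPM, and at 143, 138, 114, 127 and 185 CPM in aged ones (log2 -0.72 ± 0.16, edgeR adjusted p = 0.00881). That call was lost without young 1 or aged 3 (adjusted p = 0.0549 to 0.0557). Sox4, a transcription factor of lymphoid and stem cells, fell at peaks 4.81 kb upstream and 10.6 kb downstream of its start. Its distal sum spread widely in young libraries, at 360, 212, 249 and 143 CPM, and stood at 118 to 177 CPM in aged ones (log2 -0.81 ± 0.20, edgeR adjusted p = 0.0156). Leaving out young 1, aged 1, aged 2 or aged 3 ended the call (adjusted p = 0.0519 to 0.268).

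Opposite changes within a locus were rarer, with 2 genes holding at least 2 gains and 2 losses. Gse1, a coregulator gene with 50 tested peaks, had 3 gains and 2 losses. Its annotated span begins far before the start used for distances, so the 3 gains, 105 to 111 kb before that start (log2 0.86 to 1.22), lie inside the gene. The losses were at the outer gene end, 261 kb before that start (log2 -0.77), and in the gene span 83.7 kb after it (log2 -1.49). Its distal sum of 47 peaks was not called (log2 -0.09 ± 0.10, edgeR adjusted p = 0.625), and that value was positive without young 1, without batch 1, with the share covariate and with all-peak scaling (0.016 to 0.054). Ets1, a transcription factor of lymphoid cells, had 2 gains and 2 losses among 17 peaks, and a distal sum at -0.20 ± 0.13 that was not called and turned to 0.025 without young 1 and 0.034 without batch 1.

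Gene ends and distal peaks of the same gene mostly changed apart. Of 7896 genes tested at both, 7067 were called at neither, 649 at the distal sum alone, 149 at the gene end alone and 31 at both. Of gene ends that rose 13.3% also rose at the distal sum, beside 4.9% of all these genes, and of distal sums that rose 5.43% also rose at the gene end, beside 2.00% of all. Where the gene end rose, the median log2 fold change of the distal sum was 0.17. Cavin2, Nupr1, Aldh1a1 and Wwtr1 rose at both. For Aldh1a1, which makes retinoic acid from retinal, the gene end was at 13.4, 23, 18.1 and 21 CPM in young and 67, 72, 70.8, 50.1 and 48 CPM in aged libraries (log2 1.67 ± 0.23, edgeR adjusted p = 1.77e-05), and its distal sum rose by 1.44 ± 0.21. Ackr1, the Duffy chemokine receptor, rose at its distal sum from 20.8, 45.6, 28.5 and 39.7 CPM to 86.3, 78.4, 125, 86.1 and 73.8 CPM (log2 1.43 ± 0.22, edgeR adjusted p = 0.000343). The Ackr1 gene end rose by 1.52 ± 0.34 (edgeR adjusted p = 0.0101), a call that 3 of the 9 leave-outs ended (adjusted p up to 0.144).

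Csrnp1, an immediate early nuclear protein, fell at both: its gene end was at 97.4, 72.5, 106 and 88.4 CPM in young and 61.6, 45.7, 40.6, 44.8 and 61.7 CPM in aged libraries (log2 -0.83 ± 0.17, edgeR adjusted p = 0.00431, and 0.066 without young 1), without overlap, and its distal sum fell by 0.74 ± 0.16 (0.126 without young 1). Opposite calls were made at 6 genes. Rubcn, an inhibitor of autophagy, fell at its gene end from 95.4 ± 17.4 to 64.7 ± 13.7 CPM (log2 -0.52 ± 0.15, edgeR adjusted p = 0.0451, lost in 8 of 9 leave-outs), and rose at 2 distal peaks from 26.2, 40.7, 35.6 and 43.4 CPM to 106, 80.9, 140, 90.7 and 46.2 CPM (log2 1.27 ± 0.25, edgeR adjusted p = 0.00346, held in all 9). Ptpn22, a phosphatase that restrains antigen receptor signalling, went the other way: its gene end rose by 0.65 ± 0.17 (edgeR adjusted p = 0.0312) and its single distal peak fell by 1.68 ± 0.37 (edgeR adjusted p = 0.00748). Its distal call was lost without young 1 (0.0894), and its gene end call in 6 of the 9 leave-outs. Hint1 and Car13 also had opposite calls, each lost in at least 1 leave-out.

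**Figure D2:**
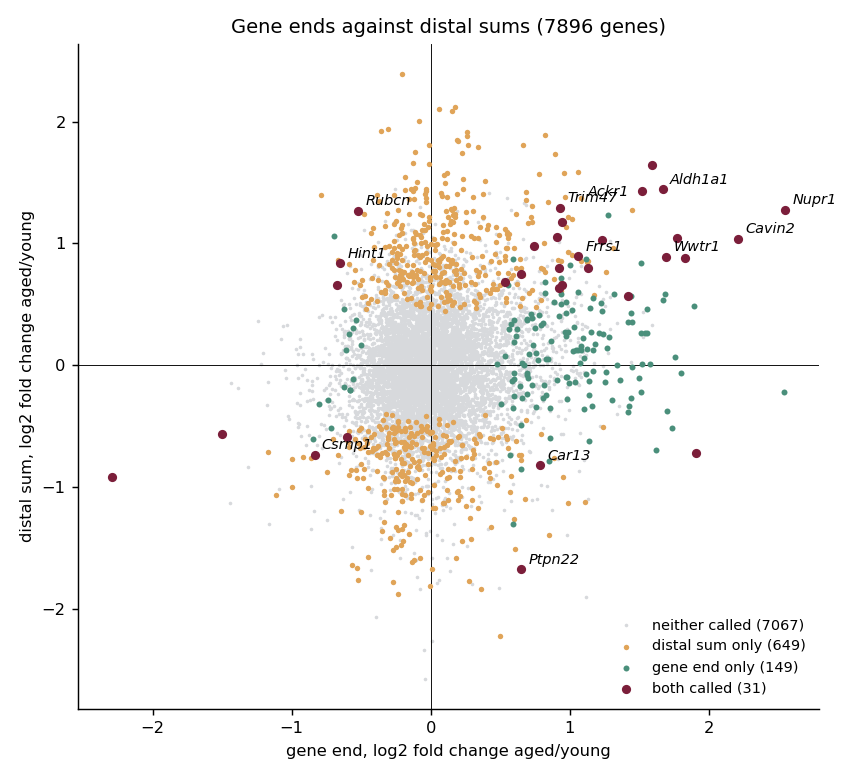
Log2 fold change of the gene end (x axis) against that of the distal sum (y axis) for the 7896 genes tested at both, coloured by where the gene was called. Points called at the distal sum alone (649) and at the gene end alone (149) line the axes, and the 31 genes called at both include Nupr1, Aldh1a1 and Ackr1 at the upper right.

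The distal sums that changed most belonged to genes of varied roles. Ros1, a receptor tyrosine kinase gene, was at 17.5, 40.7, 28.5 and 33.5 CPM in young and 174, 157, 248, 157 and 80.4 CPM in aged libraries (log2 2.38 ± 0.24, edgeR adjusted p = 3.12e-06). Trhr, the receptor of thyrotropin-releasing hormone, rose from 7.65, 4.89, 7.13 and 11.2 CPM to 35.2, 53.1, 58.9, 42.3 and 27.5 CPM at 1 distal peak (log2 2.37 ± 0.33, edgeR adjusted p = 0.000185). A distal peak is assigned here by position alone, so it may serve another gene. Sox1, a neural transcription factor, rose at 1 peak from 12 ± 4.82 to 48.1 ± 8.43 CPM (log2 2.10 ± 0.28). Wars2, the mitochondrial tryptophanyl-tRNA synthetase, rose at 4 peaks from 34.8 ± 16.8 to 123 ± 20.7 CPM (log2 1.84 ± 0.24), and Srd5a1, the steroid 5-alpha-reductase, from 23.4 ± 8.75 to 72.4 ± 10.8 CPM (log2 1.65 ± 0.23). All 5 sums kept their calls in every leave-out and when the gene-end share was a covariate.

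Among distal sums with large losses were Kcnk3, a potassium leak channel, at 113, 40.7, 92.7 and 40.9 CPM in young and 22.9, 24, 12.1, 30.2 and 25.3 CPM in aged libraries (log2 -1.66 ± 0.33, edgeR adjusted p = 0.00545), Slamf6, a lymphocyte receptor, at -1.43 ± 0.31, and Serpinh1, the collagen chaperone HSP47, at -1.35 ± 0.30. Young libraries 1 and 3 carried the highest Kcnk3 values. These 3 calls were lost without young 1 (edgeR adjusted p = 0.0894, 0.134 and 0.0965), while the call of N4bp2l2, at -1.44, held in all 9 leave-outs.

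**Figure D3:**
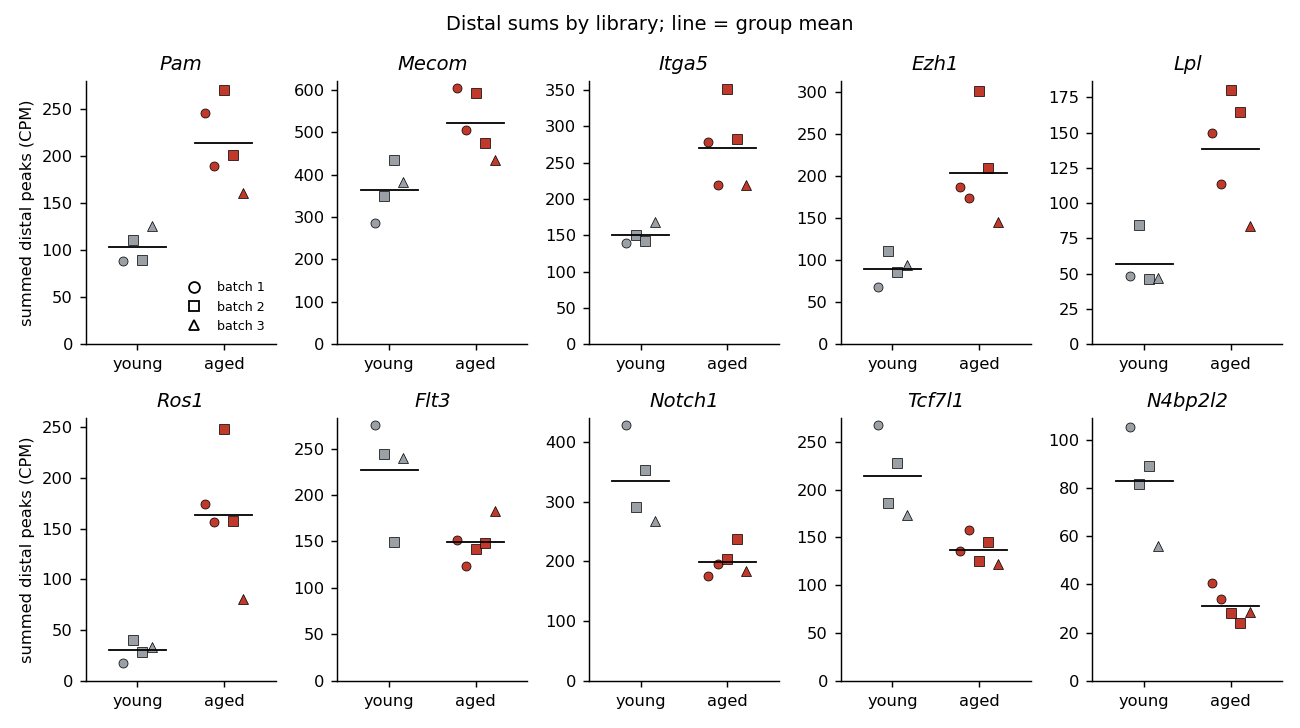
CPM of the distal sum (y axis) in each young and aged library for 10 genes, with marker shapes for the sequencing batch and a line at the group mean. Aged libraries lie above young ones for Pam, Itga5, Ezh1 and Ros1 and below them for Notch1, Tcf7l1 and N4bp2l2, with aged 5 (batch 3) the aged library nearest to the young ones for Pam, Lpl and Ros1.

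Transcription factors of blood stem cells held many gains. Out of 264 tested peaks at the 25 transcription factors, 27 rose (10.2%) and 3 fell, beside 4.45% and 1.26% of all peaks, and the median log2 fold change was 0.27 against -0.01. Without young 1 the gains were 9, and without aged 3 they were 11. Mllt3, a chromatin reader that maintains stem cells in culture, had a gain at chr4:87823171-87823870 from 7.11, 20.6, 14.2 and 9.67 CPM to 46.5, 28.7, 83.1, 65.7 and 26.7 CPM (log2 1.97 ± 0.25, edgeR adjusted p = 9.59e-06). Hoxb5, a marker of long-term stem cells, rose at its gene end from 24.4 ± 6.95 to 49.5 ± 12.2 CPM (log2 1.08 ± 0.24, edgeR adjusted p = 0.00857), with 2 of 9 leave-outs ending the call. Losses were at Gfi1 (2 peaks) and Msi2 (1 peak).

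Among 119 peaks of surface and niche receptors 11 rose (9.24%) and 1 fell, beside 4.45% and 1.26% of all peaks. Without young 1, 3 gains were called. Slamf1, the CD150 receptor used to sort stem cells with platelet bias, rose at chr1:171773016-171773715 from 3.55, 4.81, 8.52 and 6.29 CPM to 29.7, 24, 28.9, 18.5 and 8.46 CPM (log2 1.92 ± 0.34, edgeR adjusted p = 0.000584). The groups overlapped there through aged 5 alone. Its distal sum rose by 0.78 ± 0.17 (edgeR adjusted p = 0.00852, and 0.0549 without young 1). Cd9, a tetraspanin of stem cells and platelets, rose at chr6:125473363-125474062 from 21.7 ± 4.82 to 46.2 ± 17.3 CPM (log2 1.18 ± 0.23, edgeR adjusted p = 0.00168), with near-equal differences of 1.11, 1.15 and 1.07 in the 3 batches. Flt3, the receptor of multipotent and lymphoid progenitors, changed in both directions: its distal sum fell from 276, 244, 150 and 239 CPM to 152, 124, 142, 148 and 183 CPM (log2 -0.63 ± 0.16, edgeR adjusted p = 0.0181), while a weak peak at chr5:147388754-147389453 rose from 5.29 ± 1.9 to 16.3 ± 5.31 CPM (log2 1.5 ± 0.32, edgeR adjusted p = 0.00364). The distal loss was not called without young 1, young 2, aged 2 or aged 3 (adjusted p = 0.0633 to 0.177). Kdr and Esam, known from endothelium and stem cells, rose at their distal sums by 0.72 ± 0.19 and 0.72 ± 0.21, each in 4 of 9 leave-outs.

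A list of genes known to rise in aged stem cells (31 with a tested gene end) was compiled with earlier results of these data known, so its direction is not independent evidence. Out of its 151 tested peaks 28 rose (18.5%) and 1 fell, beside 4.45% and 1.26% of all peaks, and 15 gains were called without young 1. Gda, a guanine deaminase, rose at its distal sum from 84.2, 148, 118 and 113 CPM to 201, 177, 248, 242 and 135 CPM (log2 0.80 ± 0.16, edgeR adjusted p = 0.00355), with aged 5 below young 2. Platelet and megakaryocyte genes rose at 12 of 97 peaks (12.4%, beside 4.45% of all peaks), 5 of them called without young 1. Gp1ba, the platelet receptor of von Willebrand factor, rose at chr11:70638553-70639252 from 11.5, 32.3, 28.4 and 27.6 CPM to 54.5, 66.2, 80.5, 72.5 and 34.3 CPM (log2 1.32 ± 0.26, edgeR adjusted p = 0.00172). Zfpm1, the GATA1 cofactor FOG1, rose at chr8:122309142-122309841 from 24.2 ± 8.44 to 54.4 ± 17.5 CPM (log2 1.21 ± 0.23) and had a loss at another peak. Mmrn1, a platelet granule protein, rose at its distal sum from 64.3 ± 19.6 to 142 ± 42.2 CPM (log2 1.04 ± 0.21, edgeR adjusted p = 0.00481).

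Adhesion genes showed a few large gains within a list near the background. Of 166 peaks 8 rose (4.82%) and 2 fell (1.2%), beside 4.45% and 1.26% of all peaks. Itga5, the fibronectin receptor subunit, rose at chr15:103358230-103358929 from 13.3, 24.7, 11.4 and 12.1 CPM to 74.6, 49.8, 103, 82.1 and 32.1 CPM (log2 2.05 ± 0.26, edgeR adjusted p = 9.59e-06), a call kept with the share covariate. Its 7 distal peaks together rose from 139, 150, 143 and 169 CPM to 278, 219, 352, 283 and 219 CPM (log2 0.84 ± 0.16, edgeR adjusted p = 0.00286). Itga4, which pairs with ITGB1 to hold stem cells to VCAM1, rose by 0.77 ± 0.16 at its distal sum, with aged 5 (117 CPM) within the young range of 98 to 142 CPM. Podxl, a sialomucin, rose at its gene end from 32.2, 53.2, 36.2 and 27.7 CPM to 141, 101, 154, 89.6 and 51.6 CPM (log2 1.45 ± 0.20, edgeR adjusted p = 3.86e-05). Distal sums of Itga9 and Pecam1 fell.

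Inflammatory and cytokine genes changed in both directions. Cytokine receptors had 2 gains and 4 losses among 127 peaks (1.57% and 3.15%, beside 4.45% and 1.26%), and their 24 distal sums had a median of -0.22 with 3 losses. Of all distal sums 3.57% fell. Il10rb, a chain of the interleukin 10 receptor, fell at chr16:91413093-91413792 from 33.8, 16.5, 8.52 and 17.9 CPM to 8.02, 11.1, 4.51, 9.58 and 3.56 CPM (log2 -1.58 ± 0.30, edgeR adjusted p = 0.00113), a call held in all 9 leave-outs. Il6ra and Il6st, both chains of the interleukin 6 receptor, fell at their distal sums by 0.60 ± 0.18 and 0.54 ± 0.16 (edgeR adjusted p = 0.0385 and 0.0333), held in 1 and 3 of 9 leave-outs. Without young 1 a single cytokine receptor peak was called, a loss. Toll-like receptor and NF-kB genes moved both ways, 6 higher (5.31%) and 4 lower (3.54%) of 113 peaks, and 1 each without young 1. Tnfaip3, the NF-kB inhibitor A20, rose at chr10:19008346-19009045 from 3.11, 2.75, 5.68 and 4.35 CPM to 28.1, 8.79, 23.7, 10.3 and 14.2 CPM (log2 2.13 ± 0.38, edgeR adjusted p = 0.000679) and fell at another peak.

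Interferon response genes had 4 gains (4.94%) and 2 losses (2.47%) among 81 peaks, beside 4.45% and 1.26% of all peaks. Ifit2, an interferon-induced antiviral gene, rose at chr19:34562356-34563055 from 6.85 ± 2.75 to 18.5 ± 7.92 CPM (log2 1.33 ± 0.29, edgeR adjusted p = 0.00515), and the distal sum of Ifih1, the RNA sensor MDA5, rose from 41.6 ± 11.1 to 81.1 ± 17.6 CPM (log2 0.89 ± 0.20, edgeR adjusted p = 0.0101, and 0.0539 without aged 3). Tap2, a peptide transporter of antigen presentation, had a gain 2260 bp from its span at chr17:34218581-34219280, from 7.11, 5.5, 4.26 and 12.6 CPM to 16.8, 17, 32.3, 22.6 and 28.5 CPM (log2 1.66 ± 0.28, edgeR adjusted p = 0.000294). Aged 5 was among the highest there. The Tap2 gain was the only call among 54 peaks of antigen presentation genes (1.85%, beside 4.45% of all peaks). Tyk2, a Janus kinase of interferon receptors, had a gain 3383 bp from its span (log2 1.71 ± 0.34, edgeR adjusted p = 0.0019). The Tyk2 gain was the only one among 111 peaks of JAK-STAT genes (0.9%), of which 3 fell (2.7%).

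Notch genes had 3 gains (2.11%) and 4 losses (2.82%) among 142 peaks, beside 4.45% and 1.26% of all peaks. At 21 distal sums they had 3 losses, at Notch1, Dll4 and Hes1, beside 3.57% of all distal sums. The receptor Notch1, needed for T cell fate, fell at its distal sum from 428, 292, 353 and 268 CPM to 176, 196, 204, 237 and 184 CPM (log2 -0.75 ± 0.15, edgeR adjusted p = 0.0032), without overlap. A peak nearby, chr2:26513235-26513934, fell from 37.9 ± 9.04 to 19.2 ± 4.3 CPM (log2 -1.01 ± 0.24). Neither was called without young 1 (edgeR adjusted p = 0.0599 and 0.0975). The ligand Jag1 rose at its gene end from 53.4, 54.4, 47.5 and 71.2 CPM to 188, 118, 113, 104 and 81 CPM (log2 0.97 ± 0.18, edgeR adjusted p = 0.00294, and 0.0664 without young 1), and Maml3, a coactivator of Notch, at chr3:51738926-51739625 from 8.3 ± 3.48 to 21 ± 6.23 CPM (log2 1.33 ± 0.29).

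Wnt genes had 3 gains (2.16%) and 4 losses (2.88%) among 139 peaks, beside 4.45% and 1.26% of all peaks. Tcf7l1, a repressor of Wnt targets, fell at its distal sum from 268, 186, 228 and 174 CPM to 136, 158, 126, 145 and 122 CPM (log2 -0.66 ± 0.15, edgeR adjusted p = 0.00931, and 0.108 without young 1), and the sums of Lef1 and Axin1 fell too. Tle3, a corepressor of TCF factors, fell at a peak 49643 bp from its span, chr9:61321984-61322683, from 19.5, 29.6, 17 and 18.9 CPM to 5.61, 9.96, 4.51, 6.84 and 8.46 CPM (log2 -1.60 ± 0.29, edgeR adjusted p = 0.000699), with no leave-out ending the call. It also had a gain. TGF-beta and BMP genes had 4 distal gains among 26 sums (4.76% of all distal sums rose), among them Smad1 (0.58 ± 0.17, held in 3 of 9 leave-outs) and Id2 (0.56 ± 0.17, held in 4), and 3 gains and 3 losses among 166 peaks (1.81% each).

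Of 175 peaks of the insulin, IGF and PI3K list 8 rose (4.57%, close to the 4.45% of all peaks) and 1 fell, with 2 gains called without young 1. Igf1r, the receptor, rose at chr7:67973163-67973862 from 13.8, 12.4, 9.94 and 10.6 CPM to 24.1, 28.1, 40.6, 37.6 and 14.2 CPM (log2 1.19 ± 0.26, edgeR adjusted p = 0.0042). Igf2r, which clears IGF2, rose at chr17:12714036-12714735 from 7.32 ± 1.81 to 16.9 ± 4.64 CPM (log2 1.24 ± 0.28). Of all peaks 4.45% rose and 1.26% fell, while feedback inhibitors of MAPK signalling had 0 gains called by edgeR among 123 peaks (9 at an unadjusted p under 0.05, and 0 by DESeq2) and 1 loss. This was Spry1, an inhibitor of receptor tyrosine kinase signalling, at chr3:37675016-37675715, 30417 bp from its span, from 29.3, 25.4, 25.6 and 13.5 CPM to 4.81, 7.62, 6.02, 8.9 and 12 CPM (log2 -1.51 ± 0.30, edgeR adjusted p = 0.00183). Distal sums of Dusp5, Dusp6 and Rasgrp1 fell, and 0 of these were called by edgeR without young 1 (2 at an unadjusted p under 0.05). They were the 3 losses among the 19 distal sums of the list, beside 3.57% of all distal sums.

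Immediate early and AP-1 genes held losses and no called gain. Among 128 peaks edgeR called 0 higher (5 at an unadjusted p under 0.05, and 0 by DESeq2) and 3 lower (2.34%), beside 4.45% and 1.26% of all peaks. Among 22 distal sums 4 fell, beside 3.57% of all distal sums, with a median of -0.37 against -0.04 for all. Jund, an AP-1 subunit, had 1 distal peak at 147, 132, 139 and 136 CPM in young and 58.1, 51.8, 56.4, 92.2 and 96.9 CPM in aged libraries (log2 -0.96 ± 0.22, edgeR adjusted p = 0.0113). Young libraries were nearly level there, and no aged library reached them. Fos, its dimer partner, fell over 11 distal peaks from 795, 640, 752 and 696 CPM to 391, 418, 414, 494 and 693 CPM (log2 -0.58 ± 0.16, edgeR adjusted p = 0.0268), with aged 5 in the young range. The calls were lost without young 1 or aged 3 for Jund (0.0557 to 0.105) and without young 1, young 3, aged 1, aged 2 or aged 3 for Fos (0.076 to 0.215). Without young 1, edgeR called 0 of the 22 sums lower (6 at an unadjusted p under 0.05).

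Lymphoid and myeloid genes were mostly called singly. Of 16 B and common lymphoid distal sums 3 fell, Pax5, Ccr9 and Notch1, at a list median of -0.68, beside 3.57% of all distal sums. Peaks of this list went both ways. Among 74 peaks 2 rose (2.7%, at Bcl11a and Ebf1) and 3 fell (4.05%, at Notch1, Rag1 and Ccr9), beside 4.45% and 1.26% of all peaks. Of the 11 lymphoid gene ends edgeR and DESeq2 called 0 (3 at an unadjusted p under 0.05 in edgeR). Some of them spread widely among the young libraries: Cd79a stood at 4.50 to 77.8, Igll1 at 3.75 to 80.1 and Rag1 at 5.99 to 51.9 CPM. Aged libraries were at 2.39 to 17.1, 2.87 to 35.6 and 2.39 to 19.9 CPM there. Others, such as Tcf3 (224 to 261 CPM in young), were more even. The part of this spread in the lymphoid values was not tested. Of 11 myeloid gene ends 2 rose, Spi1 and Cebpd, beside 1.86% of all gene ends, and of 15 myeloid distal sums edgeR and DESeq2 called 0 (3 at an unadjusted p under 0.05 in edgeR). Pax5, the B cell commitment factor, was at 212, 109, 114 and 124 CPM in young and 67, 67, 50.8, 101 and 117 CPM in aged libraries (log2 -0.85 ± 0.25, edgeR adjusted p = 0.0461), and Ccr9, a thymus homing receptor, at 93, 96.1, 96.2 and 74.4 CPM against 45.8, 36.6, 21.8, 36.3 and 60.6 CPM (log2 -1.21 ± 0.35, edgeR adjusted p = 0.0457). Pax5 was called in 3 and Ccr9 in 2 of the 9 leave-outs, and without young 1 edgeR called 0 of the 16 sums (2 at an unadjusted p under 0.05). In the T and NK list edgeR called 3 of 40 peaks higher (7.5%, at Klrb1c and Prf1) and 0 lower. The Prf1 distal sum also rose. Spi1, the myeloid master regulator PU.1, rose at its gene end from 69.1, 61.6, 52 and 71.9 CPM to 107, 108, 136, 113 and 79.6 CPM (log2 0.71 ± 0.18, edgeR adjusted p = 0.0333), and Cebpd, a C/EBP factor of granulocytes, from 32.1 ± 5.44 to 54.1 ± 5.3 CPM (log2 0.71 ± 0.19, edgeR adjusted p = 0.0333). The groups did not overlap at either gene, yet the calls were kept in only 2 and 3 of the 9 leave-outs. In 54 myeloid peaks edgeR called only 1 change, a loss at Fcgr3. All tested peaks of erythroid genes together were at 381 to 426 CPM in young and 452 to 556 CPM in aged libraries, and those of neuronal and epithelial control genes at 409 to 460.5 and 490.3 to 603 CPM, so both sums were higher in every aged library than in any young one.

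Signalling genes for calcium, cyclic nucleotides and small GTPases held at most 2 gains each. Calcium genes rose at 13 of 209 peaks (6.22%, beside 4.45% of all peaks) and fell at 2, with 5 gains called without young 1. Itpr1, the endoplasmic reticulum channel opened by IP3, rose at chr6:108236235-108236934 from 5.33, 5.5, 2.84 and 4.35 CPM to 22.5, 20.5, 25.6, 19.2 and 12 CPM (log2 1.99 ± 0.30, edgeR adjusted p = 9.53e-05). Ryr2, a calcium release channel known from heart, rose at chr13:11836732-11837431 from 8.44, 30.9, 8.52 and 21.3 CPM to 62.6, 52.7, 129, 72.5 and 50.8 CPM (log2 2.07 ± 0.31, edgeR adjusted p = 0.000136), and both calls held with the share covariate. The Ryr2 distal sum rose by 1.06 ± 0.20. Camk1d, a calmodulin-dependent kinase, had a gain 6514 bp from its span (log2 1.84 ± 0.31). Phosphodiesterase genes, which end cyclic nucleotide signals, rose at 6 of 162 peaks (3.7%, below the 4.45% of all peaks) and fell at 2. Pde4b had a gain 41090 bp from its span, chr4:102045543-102046242, from 4.6 ± 2.21 to 18.9 ± 5.43 CPM (log2 2.02 ± 0.34, edgeR adjusted p = 0.000294).

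GEFs and GAPs, which switch small GTPases on and off, rose at 18 of 322 peaks (5.59%) and fell at 6 (1.86%). Of all peaks 4.45% rose and 1.26% fell. Of the list, 6 gains were called without young 1 and 5 without aged 3. Dock10, an activator of Rac and Cdc42, rose at chr1:80606098-80606797 from 6.48 ± 1.73 to 16.4 ± 4.34 CPM (log2 1.35 ± 0.29, edgeR adjusted p = 0.00399). Dock5, a Rac activator, had a gain 7384 bp from its span from 10.6 ± 3.41 to 32.1 ± 15.2 CPM (log2 1.41 ± 0.31, edgeR adjusted p = 0.00521). Vav2, a small GTPase activator, and Tiam2, a Rac activator, fell at their distal sums. Tiam1, Arhgap22 and Dock9 each had both a gain and a loss.

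At genes of glycolysis and hypoxia 10 of 113 peaks rose (8.85%, beside 4.45% of all peaks), 1 fell and 3 gains were called without young 1. Pfkp, the platelet isoform of phosphofructokinase, rose at chr13:6642333-6643032 from 4, 5.5, 4.26 and 5.32 CPM to 16.8, 17.6, 27.4, 26.7 and 11.6 CPM (log2 1.97 ± 0.30, edgeR adjusted p = 9.6e-05), a call kept with the share covariate. Slc2a1, the glucose transporter GLUT1, had a gain 31242 bp from its span, chr4:119076804-119077503, from 11.5, 28.2, 11.4 and 31.9 CPM to 69, 53.3, 103, 89 and 41.4 CPM (log2 1.71 ± 0.28, edgeR adjusted p = 0.000236). Hk2, a hexokinase, rose at chr6:82753176-82753875 from 9.61 ± 2.14 to 23 ± 5.11 CPM (log2 1.28 ± 0.29). Pfkfb3, which makes the activator of phosphofructokinase, had 3 gains. Lipid and cholesterol genes, a separate list, rose at 3 of 104 peaks (2.88%, below the 4.45% of all peaks) and fell at 2 (1.92%). In that list Lpl, the lipoprotein lipase, rose at its distal sum from 48.1, 84.7, 46.3 and 47.1 CPM to 150, 114, 180, 165 and 83.7 CPM (log2 1.25 ± 0.20, edgeR adjusted p = 0.000645), overlapping through young 2 and aged 5. The distal sum of Scd1 fell.

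Chromatin regulators changed singly. Ezh1, the Polycomb methyltransferase of slowly dividing cells, rose at chr11:101221025-101221724 from 4.44, 8.93, 2.84 and 8.22 CPM to 59.4, 48, 94.7, 63.6 and 23.6 CPM, a 7.79-fold difference (log2 2.96 ± 0.39, edgeR adjusted p = 0.000117). Its distal sum was at 67.8, 111, 85.5 and 94.3 CPM in young and 187, 174, 302, 210 and 145 CPM in aged libraries (log2 1.17 ± 0.20, edgeR adjusted p = 0.00115), and both calls held in all 9 leave-outs. As a list the Polycomb genes stood near the background, with 4 gains in 82 peaks (4.88%, beside 4.45% of all peaks), and their median was -0.33.

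DNA repair and survival genes had more losses than gains. DNA repair genes fell at 4 of 49 peaks (8.16%) and rose at 1, and the BCL2 family fell at 4 of 72 (5.56%) and rose at 1. Of all peaks 1.26% fell and 4.45% rose. Polk, a polymerase that copies past damaged bases, fell at its distal sum from 163, 147, 189 and 100 CPM to 115, 84.7, 88.7, 84.6 and 81.5 CPM (log2 -0.72 ± 0.16, edgeR adjusted p = 0.00828, held in all 9 leave-outs). Mcl1, a survival factor of stem cells, had a loss 4085 bp from its span, chr3:95652160-95652859, from 37.3, 13.1, 27 and 6.29 CPM to 5.61, 10.5, 3.76, 6.16 and 6.23 CPM (log2 -1.64 ± 0.33, edgeR adjusted p = 0.00187, and 0.0766 without young 1). Batch 3 showed no difference there (-0.01). Bcl2l11, the killer protein BIM, fell at its distal sum from 376, 253, 264 and 257 CPM to 185, 169, 196, 199 and 210 CPM (log2 -0.59 ± 0.15, edgeR adjusted p = 0.0145), lost without young 1, aged 2 or aged 3 (0.0542 to 0.223). Without young 1, edgeR called 0 of the DNA repair and 0 of the BCL2 peaks lower (8 and 6 at an unadjusted p under 0.05). Phlda3, a p53 target that restrains AKT, had a gain 1748 bp from its span, from 7.99, 12.4, 11.4 and 10.2 CPM to 16, 9.96, 30.8, 21.9 and 41.4 CPM (log2 1.27 ± 0.28, edgeR adjusted p = 0.00521), where aged 5 was the highest library.

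**Figure D4:**
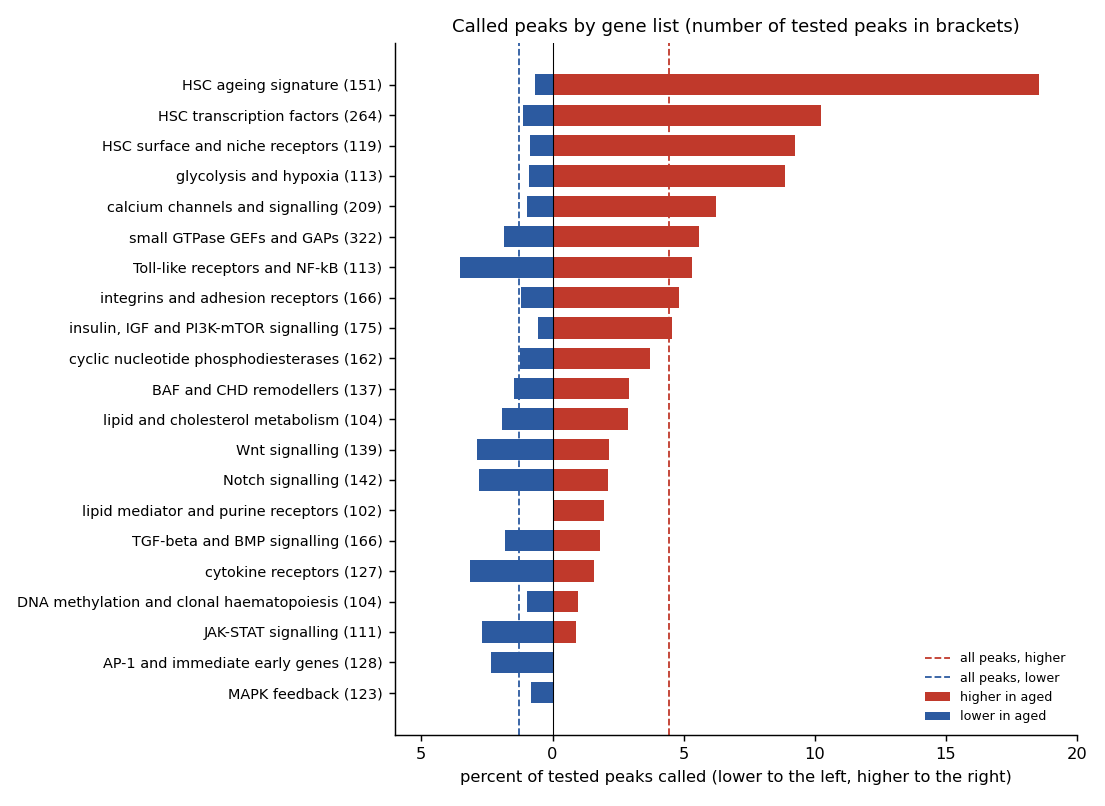
Share of tested peaks called higher (right) and lower (left) in aged libraries, in percent, for the 21 gene lists with at least 100 tested peaks. Dashed lines mark all peaks (4.45% and 1.26%); the ageing signature (18.5%) and the stem cell transcription factors (10.2%) lie furthest right, and AP-1 and MAPK feedback genes have no bar there.

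Promoters at gene ends that rose held fewer CpG pairs than those that fell. RefSeq promoter sequences of GRCm38.p6 (250 bases before to 50 after the start) matched 198 gene ends that rose, 28 that fell and 10763 of those tested. The median number of CpG pairs was 9 in those that rose, 28.5 in those that fell and 21 in all, and 5 or fewer were found in 63 (31.8%), 2 (7.14%) and 857 (7.96%). This and the motif search were chosen after values had been seen. Some promoters went against the medians. Amotl2 and B3gnt8 rose with 26 and 23 CpG pairs, and Lipo3 fell with 3. The promoters below are examples of CpG-poor gains (Cavin2, Aldh1a1), a CpG-containing gain (Wwtr1) and CpG-rich losses (Csrnp1, Tanc2), and do not cover such cases. They run 5′ to 3′ on the gene's strand, with motif matches on either strand in capitals (the CCAAT box, GGGCGG for the GC box, AGATAA for GATA factors, TGANTCA for AP-1 and GGAATG for TEAD factors).
Cavin2 (chr1:51288876-51289175, plus strand): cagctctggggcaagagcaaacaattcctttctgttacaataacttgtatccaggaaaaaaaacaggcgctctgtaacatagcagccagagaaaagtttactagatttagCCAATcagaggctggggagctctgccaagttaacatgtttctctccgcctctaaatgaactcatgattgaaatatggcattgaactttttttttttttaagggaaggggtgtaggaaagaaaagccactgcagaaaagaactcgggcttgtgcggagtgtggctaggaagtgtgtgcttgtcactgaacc
Aldh1a1 (chr19:20601718-20602017, plus strand): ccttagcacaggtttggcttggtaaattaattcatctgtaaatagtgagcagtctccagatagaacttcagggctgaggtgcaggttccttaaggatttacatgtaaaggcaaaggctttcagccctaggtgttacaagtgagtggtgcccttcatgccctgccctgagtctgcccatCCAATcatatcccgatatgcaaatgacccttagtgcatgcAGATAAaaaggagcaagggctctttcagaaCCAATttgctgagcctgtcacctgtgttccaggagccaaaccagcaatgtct
Wwtr1 (chr3:57575827-57576126, minus strand): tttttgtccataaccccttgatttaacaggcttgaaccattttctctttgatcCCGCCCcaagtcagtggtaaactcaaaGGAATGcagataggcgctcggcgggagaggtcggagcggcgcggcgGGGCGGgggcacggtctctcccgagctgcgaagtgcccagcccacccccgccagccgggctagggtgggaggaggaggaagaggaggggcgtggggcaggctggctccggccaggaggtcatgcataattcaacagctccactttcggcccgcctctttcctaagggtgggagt
Csrnp1 (chr9:119982974-119983273, minus strand): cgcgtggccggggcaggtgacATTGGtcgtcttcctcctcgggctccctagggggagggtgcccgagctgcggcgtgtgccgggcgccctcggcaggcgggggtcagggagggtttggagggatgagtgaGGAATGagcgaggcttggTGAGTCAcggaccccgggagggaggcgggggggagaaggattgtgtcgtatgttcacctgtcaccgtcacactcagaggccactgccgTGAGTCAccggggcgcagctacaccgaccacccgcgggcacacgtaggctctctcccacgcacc
Tanc2 (chr11:105589736-105590035, plus strand): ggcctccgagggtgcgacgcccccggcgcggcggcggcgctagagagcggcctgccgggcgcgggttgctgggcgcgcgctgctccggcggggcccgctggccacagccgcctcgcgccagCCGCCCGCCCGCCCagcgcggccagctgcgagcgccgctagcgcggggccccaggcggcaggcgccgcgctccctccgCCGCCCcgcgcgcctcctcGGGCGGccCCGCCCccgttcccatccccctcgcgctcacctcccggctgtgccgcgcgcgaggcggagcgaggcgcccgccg

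Cavin2 encodes a caveolar coat protein, and its promoter holds 4 CpG pairs and 1 CCAAT box. Its gene end was at 15.7, 14.5, 11.3 and 15 CPM in young and 88.8, 80.3, 109, 75.1 and 30.1 CPM in aged libraries (log2 2.21 ± 0.24, edgeR adjusted p = 2.34e-07). Aldh1a1 has 1 CpG pair, 2 CCAAT boxes and 1 GATA match. Wwtr1 has 19 CpG pairs, 2 GC boxes and 1 TEAD match. Csrnp1 has 26 CpG pairs, 2 AP-1 matches, 1 CCAAT box and 1 TEAD match. Tanc2, a postsynaptic scaffold gene, has 57 CpG pairs and 6 GC boxes, and its gene end was at 68.3, 76.1, 74.7 and 114 CPM in young and 34.4, 31.8, 44.6, 42.2 and 75.3 CPM in aged libraries (log2 -0.80 ± 0.17, edgeR adjusted p = 0.00506, and 0.0954 without young 1).

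Over the 10763 gene ends with a matched promoter the difference followed CpG number. With promoters in 5 groups by CpG number, 5.59% rose and 0.183% fell in the group with 0 to 11 pairs, where the median log2 fold change was 0.23. In the group with 32 to 67 pairs 0.245% rose and 0.636% fell, with a median of -0.16. Scaled over all peaks, these medians were -0.02 and -0.41, and both were -0.01 when the gene-end share was a covariate, with the 3 groups between them at 0.02 to 0.03. Counts in the CpG-poorest group made up 10.4 to 11.9% of gene-end counts in young and 10.9 to 14.5% in aged libraries (2-sided exact permutation test, p = 0.0476, and 0.0635 adjusted over 4 measures), with batch differences of 2.29, 2.59 and 0.0903 percentage points (exact permutation within batches, p = 0.0278, and 0.037 adjusted). Across motifs, both strands counted, the GC box stood in 38.4% of promoters that rose, 78.6% of those that fell and 66.2% of all. An ETS match (CCGGAA) stood in 14.1%, 35.7% and 27.8%, a GATA match in 11.1%, 3.57% and 5.9%, an AP-1 match in 12.1%, 3.57% and 4.61%, and a TATAAA match in 10.1%, 3.57% and 6.55%. A RUNX match (TGTGGT) stood in 13.6%, 14.3% and 12.3%, and a TEAD match in 13.1%, 7.14% and 11.4%. Matches of GC-rich motifs go with CpG number, and a match is not a bound site.

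Among other gene ends that rose, B3gnt8, a glycosyltransferase that extends N-glycans, was at 14.9, 16.9, 20.4 and 15 CPM in young and 77.9, 84.4, 96.3, 72.5 and 38.7 CPM in aged libraries (log2 2.07 ± 0.24, edgeR adjusted p = 6.76e-07). Arap3, a GAP for Arf and other small GTPases, was at 8.64, 16.9, 2.26 and 3 CPM against 52.5, 49.8, 82, 46.1 and 18.6 CPM (log2 2.54 ± 0.33, edgeR adjusted p = 4.95e-06). Both calls held in all leave-outs and with the share covariate. Sqor, a mitochondrial enzyme that oxidises sulfide, rose from 11.1 ± 4.78 to 47.6 ± 25.8 CPM (log2 2.09 ± 0.33), Enpp2, the lysophosphatidic acid producer autotaxin, from 10.4 ± 5.88 to 36.5 ± 17.3 CPM (log2 1.91 ± 0.36), and Kcnab1, a potassium channel subunit, from 10.7 ± 4.04 to 35.4 ± 12.1 CPM (log2 1.70 ± 0.31). These 3 held in all leave-outs, but none was called with the share covariate (edgeR adjusted p = 0.117, 0.368 and 0.265).

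Peaks near microRNA genes were looked at after the other values had been seen. Of 440 hairpins with a tested peak within 5000 bp, 20 had a called one. Of the 565 tested peaks in those windows 3.54% were called, beside 5.72% of all tested peaks. The mature sequences of those described are shown to identify the microRNAs, whose own levels ATAC-seq does not measure. Capitals mark the seed (bases 2 to 8), and none of the 6 sequences shares its seed with another.
miR-22-3p: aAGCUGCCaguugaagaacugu
miR-5129-5p: aUGUGGGGgcauugguauuuuc
miR-5129-3p: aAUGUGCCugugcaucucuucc
miR-7216-5p: uGGAGAGCuggcagaggacccaga
miR-7216-3p: uGGAAUUUggucuuuuccggc
miR-200c-3p: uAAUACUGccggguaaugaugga

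Near the gene of miR-22, a microRNA known in stem cells and leukaemia, a peak 4500 bp away (chr11:75458517-75459216) was at 19.5, 26.1, 15.6 and 18.4 CPM in young and 40.9, 42.2, 62.8, 41.7 and 29.8 CPM in aged libraries (log2 1.06 ± 0.24, edgeR adjusted p = 0.00563, and 0.0507 without young 1). A peak within the span of Zeb2, 3193 bp from the gene of miR-5129, rose from 4, 9.62, 4.26 and 3.39 CPM to 22.5, 11.7, 24.8, 15.1 and 9.8 CPM (log2 1.62 ± 0.34, edgeR adjusted p = 0.00315). Near the gene of miR-7216 a peak at chr17:27324879-27325578 fell from 18.7, 18.6, 25.6 and 13.5 CPM to 8.02, 7.62, 5.26, 4.11 and 8.46 CPM (log2 -1.47 ± 0.31, edgeR adjusted p = 0.00291), without overlap. Both of these calls held in all 9 leave-outs. A peak 4824 bp from the gene of miR-200c, at Ptpn6, fell by 1.23 ± 0.29 (edgeR adjusted p = 0.00846, and 0.192 without young 1), so that call rested on young 1.

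The X chromosome, looked at after the other values had been seen, took 1.52 to 2.11% of counts in young and 2.09 to 2.21% in aged libraries (2-sided exact permutation test, p = 0.0238, and 0.0635 adjusted over 4 measures), with batch differences of 0.623, 0.198 and 0.0994 percentage points (exact permutation within batches, p = 0.0278, and 0.037 adjusted). Young 1 had the lowest share. Of 1228 tested X peaks 76 rose (6.19%) and 1 fell, with a median log2 fold change of 0.25, against 4.41% higher and a median of -0.01 elsewhere. Without young 1, 12 rose (0.987%, against 1.31% elsewhere) and the median was 0.08, so the difference in call rate rested on that library. Lancl3, a LanC-like protein gene on the X, had 4 gains among 6 peaks, all 6 with a positive log2 fold change. Its distal sum was at 48.1, 116, 67.7 and 107 CPM in young and 143, 119, 238, 127 and 130 CPM in aged libraries (log2 0.87 ± 0.22, edgeR adjusted p = 0.0197), and was not called without young 1, young 3, aged 1 or aged 3 (0.0501 to 0.131). The labels used here give no sex for the animals, and its part in these values was not tested.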

How the data were processed

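ATAC-seq libraries of LT-HSCs were made with Tn5 (Nextera), per the labels' protocols. The deposited matrix holds raw counts per consensus peak, 57289 peaks of 700 bp on mm10, and no normalization by the authors was used. The submitters' processing notes name SAMtools 1.14, R 4.2.0 and featureCounts. Aligner, peak caller, duplicate handling and any shift for Tn5 are not given in the sources used here, and duplicates or an unshifted cut would change the counts per peak.

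Models were fitted in edgeR 4.0.16 under R 4.3.3, with all 14 libraries: filterByExpr, TMM, robust quasi-likelihood, group and sequencing batch as terms, Benjamini-Hochberg adjustment over all features and a threshold of 0.05. It was tested on simulated data. SEs come from the log2 fold change and the F statistic. Per-library CPM used TMM, and log values a prior count of 2. Batch enters the fits only, not the means of CPM. Gene names came from RefSeq (GRCm38.p6, called mm10), with 21887 protein-coding genes. For 50693 peaks a gene lay within 50 kb. Gene ends (13420; 10778 from a stranded start) and distal sums (11031, from 35208 peaks, a median of 2 and at most 47 each) were scaled on their own counts. Gene ends shared 1265 peaks.

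Named peaks were called, had a mean count of at least 20, and changed in the same direction in each batch. Up to 3 were taken per list by smallest p, with loci by number of called peaks, and gene ends and distal sums by size of change or by list. Some genes that this rule picks are not reported here. The members and the 47 lists (972 of 1016 symbols matched) were chosen with earlier results of these data known. Shares were compared by 2-sided exact permutation (126 arrangements, and 36 within batches, where 0.0278 is the smallest p). Python 3.11.15, numpy 2.4.6, pandas 2.3.3 and matplotlib 3.10.9 were used. Alternatives were DESeq2 1.42.0 and its size factors, other filters, no batch term, the 9 libraries alone, other scalings and windows, the gene-end share as a covariate, a replicate block, and each library or batch left out.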

Additional observations from a re-analysis of the deposited data

Results flagged for a closer look

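A library stood far from the others of its group, by Dixon's criterion for a lone extreme value, in 18 of the 258 groups of named values checked, where chance gives about 1 in 20. The extreme values were these, in CPM. Among peaks they were Itga5 in young 2 (24.7), Ryr2 in aged 3 (129) and Col4a1 in young 1 (18.7). At gene ends they were Nupr1 in aged 3 (83.6), Tanc2 in young 4 (114), Rubcn in aged 5 (88.2) and Car13 in aged 5 (48.0). Among distal sums, aged libraries stood out at Polk (aged 1, 115), Ackr1 (aged 3, 125), Frrs1 (aged 3, 311), Lancl3 (aged 3, 238), Cog6 (aged 5, 242) and Il6ra (aged 5, 222). Young libraries stood out at Lpl (young 2, 84.7), Pax5 (young 1, 212), Ccr9 (young 4, 74.4), Ets1 (young 1, 855) and Bcl2l11 (young 1, 376). Aged 3 was the extreme library in 5 of these and young 1 in 4. Without young 1, the distal sums of Pax5 and Bcl2l11 were not called.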

How the results depend on the processing

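Taking the gene-end share as a covariate left few calls: 136 peaks, 11 gene ends and 26 distal sums, against 3214, 282 and 910. Without a batch term they were 1808, 75 and 457. With single libraries left out they ranged from 776 to 6357 peaks, 38 to 700 gene ends and 142 to 1684 distal sums, with young 1 giving the fewest. The batches, whose leaving out was chosen after seeing the data, gave 257, 14 and 61 calls without batch 1, 537, 22 and 0 without batch 2 (1550 distal sums at an unadjusted p under 0.05 in edgeR), and 6155, 778 and 1629 without batch 3. The 9 aged and young libraries alone gave 438 gene ends, and all-peak scaling 185. The labels number replicates alike, but same-numbered young and aged libraries correlated at 0.07, 0.05, -0.25 and -0.28, so the numbers were not taken to pair them. A replicate block gave 10787 peaks (5472 higher, 5315 lower), 1931 gene ends and 2279 distal sums (1101 higher, 1178 lower). DESeq2, its size factors, both other filters, loess offsets and other windows stayed within 1.5 times the reported totals, though loess offsets gave 1155 lower peaks against 710 and DESeq2 16 lower gene ends against 33. All 37 named peaks kept direction and call under DESeq2, no filter, loess offsets and no batch term, and 9 kept the call with the share covariate. Distal sums that turned were Gse1 (reported at -0.09), to 0.024 when the share was a covariate, 0.031 without batch 1, 0.054 with all-peak scaling, and between -0.12 and 0.016 with single libraries left out (0.016 without young 1), and Ets1 (reported at -0.20), to 0.034 without batch 1 and between -0.27 and 0.025 with single libraries left out (0.025 without young 1). The cause was not tested. At a median of 7 to 25 counts per peak, small changes at single peaks were not detectable.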
